A study of Mus musculus with 45 samples.

Results

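The 36 genes described here encode enzymes that build fatty acids, glycerolipids and cholesterol, together with the proteins that switch those enzymes on. They were named by function from 37 symbols, and each was represented by the probe set of highest mean among those annotated with its symbol alone. Agpat6 was absent from the annotation and was skipped. The 36 were part of 12123 genes kept for testing, from 18820 genes with a probe set of their own, and all 36 passed the filter on dim genes. By role, 17 belonged to fatty acid and glycerolipid synthesis (the fatty acid arm), 15 to sterol synthesis and transport (the sterol arm), and 4 were regulators of both (Srebf1, Srebf2, Insig1 and Insig2).

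Expression was measured in 45 mammary tumours, each on 1 array, as log2 values per probe set. The tumours grew from Trp53 null mammary fragments that were never irradiated. Every host was a wild-type BALB/c female, 10 weeks old, whose own gland epithelium had been cleared at 3 weeks of age and whose inguinal fat pads received the fragments 3 days after exposure. Hosts had been given a sham procedure (18 tumours), or 10 cGy (9 tumours), 30 cGy (10 tumours) or 80 cGy (8 tumours) of silicon ions, which are heavy charged particles. Transplants were followed for 600 days and tumours were collected at 1 cm3. All groups therefore share the lost Trp53 in the graft and an intact Trp53 in the host, and the comparison asks whether the exposed host goes with another level of lipid synthesis transcripts in the tumour. Labels for 8 pairs of tumours share a code that differs only in a final L or R, and nothing says whether such a pair came from 1 animal. P-values then measure the spread between these tumours, which may not all be independent.

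In the cell, acetyl-CoA from citrate (Acly) or acetate (Acss2) is carboxylated by Acaca and extended to palmitate by Fasn, with reducing power from malic enzyme (Me1). Desaturases and elongases then shape the chain, and Gpam, Lpin1, Dgat1 and Dgat2 place it on glycerol. Cholesterol synthesis starts with Hmgcs1, passes through mevalonate and isoprenoids to squalene (Fdft1), and ends in the sterol steps from Sqle to Dhcr7. Srebf1 and Srebf2 encode membrane-bound transcription factors (SREBPs) that are released when sterols are low, and Insig1 and Insig2 encode the proteins that hold them back. Srebf1 is known for fatty acid genes and Srebf2 for cholesterol genes. The lactating gland and adipocytes both make much fat, so milk and fat content were measured beside the genes.

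A milk score, a fat score and an epithelial score were computed for each tumour as the mean, over 8 milk protein, 10 adipocyte or 19 epithelial junction genes, of the log2 value minus the gene's mean over the 45 tumours. No gene of the lipid set is in a score. The milk score ran from -3.25 to 4.48, the fat score from -1.33 to 4.46 and the epithelial score from -3.25 to 1.54. All 4 groups held tumours on both sides of 0 for these 3 scores. The 2 arrays most alike over all genes were sham replicate 16 and 10 cGy replicate 1 (r = 0.98, against a median of 0.86 over pairs), which carry different labels and were kept as separate tumours. In 8 tumours the epithelial score was below -2, so the epithelial markers expected of a mammary tumour were low there: 4 of these were sham, and 1 at 10 cGy, 1 at 30 cGy and 2 at 80 cGy. A muscle score above 2 marked 6 tumours (3 sham, 1 at 30 cGy and 2 at 80 cGy), and a squamous score above 2 marked 3 (2 sham and 1 at 10 cGy). In bulk tumours, fewer cells of a type and less RNA per cell cannot be told apart.

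Promoter letters are shown first, since the sterol genes below moved together with Srebf2. RefSeq promoter windows (GRCm38.p6) were found by symbol for 27 of the 36 genes, and the 250 bases before the start were searched on both strands for TCACNCCAC (a sterol regulatory element), CCAAT (the NF-Y box), GGGCGG (the Sp1 box) and CACGTG (the E-box). TCACNCCAC was found in 1 of 27 genes, Hmgcs1, against 1.22% of 27025 genes. CCAAT was found in 22 of 27 (81.5%), against 37.5% of all genes and 40% of the 9656 genes kept for testing that had a window. It was in all 11 sterol genes with a window (Hmgcs1, Mvk, Pmvk, Mvd, Idi1, Lss, Cyp51, Dhcr7, Sc5d, Nsdhl and Hsd17b7), in 7 of 12 fatty acid genes and in 4 of 4 regulators. GGGCGG was in 20 of 27, against 35.4% of all and 63.8% of the kept genes, and CACGTG in 5 of 27, against 6.86% and 9.88%. The search counts these letters only, so variants of an element were not counted, and it does not show binding. The 9 genes without a window were not searched: Scd1, Scd2, Fads1, Dgat1, Dgat2, Fdps, Fdft1, Sqle and Stard4. The stretch of Hmgcs1, the enzyme that makes HMG-CoA, lies at chr13:119690154-119690282 on the plus strand and holds the element from -137 to -129 relative to the start, in capitals. Those of Idi1 (chr13:8885552-8885605, plus strand), Cyp51 (chr5:4104698-4104766, minus strand) and Nsdhl (chrX:72918461-72918520, plus strand) carry CCAAT or its reverse complement ATTGG in capitals, and were chosen after their values had been seen, as sterol genes with small p for Srebf2.
Hmgcs1: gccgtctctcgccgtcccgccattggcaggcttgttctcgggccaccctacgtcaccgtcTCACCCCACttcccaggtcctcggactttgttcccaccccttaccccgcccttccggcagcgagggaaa
Idi1: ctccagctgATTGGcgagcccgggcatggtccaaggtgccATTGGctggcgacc
Cyp51: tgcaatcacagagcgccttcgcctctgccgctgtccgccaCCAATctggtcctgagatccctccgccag
Nsdhl: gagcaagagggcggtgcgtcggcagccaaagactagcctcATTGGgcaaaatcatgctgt
The printed Idi1 stretch held 2 such boxes, and the Cyp51 and Nsdhl stretches 1 each, and the nearest box of each lay between 29 and 10 bases before the start.

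The genes differed widely in how much they varied. The standard deviation over the 45 tumours had a median of 0.54 for the 36 genes, against 0.43 for all genes tested. Thrsp, a small nuclear protein that promotes lipogenesis, varied most (SD 1.78), from 4.14 to 10.55. Its median of 5.61 lay below the median of all values on the arrays (5.67), so it was dim in many tumours. Dgat2, which makes triglyceride, had an SD of 1.16, Idi1, the isopentenyl diphosphate isomerase, 1.05 and Scd1, the stearoyl-CoA desaturase, 1.04. At the other end Acly had an SD of 0.31 and Stard4, a cholesterol carrier, 0.34. Where the array held another probe set for a gene, the 2 agreed across tumours, with r of 0.92 for Acaca, 0.98 for Me1 and 1.00 for Idi1 (n = 45 tumours that share arrays, as a description).

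Host exposure was taken first. No gene of the 36 changed in any of the 4 comparisons with sham, and neither did any of the 12123 genes tested (0% called in each, limma, Benjamini-Hochberg adjusted p under 0.05). The lowest adjusted p over all genes was 0.251 for Si hosts together, 0.991 at 10 cGy, 0.536 at 30 cGy and 0.342 at 80 cGy. At an unadjusted p under 0.05 there were 706, 443, 540 and 845 genes (5.82%, 3.65%, 4.45% and 6.97%), and 1 (Elovl6), 0, 1 (Insig2) and 0 of the 36. An F test over the 4 groups and one among the 3 doses called no gene either, with 501 (4.13%) and 482 (3.98%) at an unadjusted p under 0.05. The arrays fell into 2 sets along the first principal component of probe sets without a symbol, a split taken from the values and not from a label. One set held 9 of 18 sham tumours and 17 of 27 from Si hosts. Within sham it held 2 of the 10 tumours whose code starts with 5 and 7 of the 8 whose code starts with 6. With the array set as a term, or with sham tumours of either code alone, none of the 12123 genes was called in the 4 comparisons, with 395 to 651, 1041 to 1428 and 407 to 759 genes at an unadjusted p under 0.05. Within each array set, none of the 36 was called. Elovl6 then differed over all Si hosts by 0.69 (adjusted p = 0.555) in the one set and 0.0026 (adjusted p = 1.00) in the other.

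The regulators overlapped between all groups. Srebf1 ran from 7.79 to 9.78 in sham hosts (median 8.41), from 7.56 to 9.76 at 10 cGy (median 8.39), from 7.54 to 10.37 at 30 cGy (median 8.74) and from 7.44 to 9.83 at 80 cGy (median 8.82). Srebf2 ran from 8.71 to 10.96 in sham hosts (median 9.69), from 9.07 to 10.24 at 10 cGy (median 9.95), from 8.96 to 10.41 at 30 cGy (median 9.80) and from 8.67 to 10.32 at 80 cGy (median 9.86). Differences from sham in Srebf2 were 0.0027 ± 0.20, 0.0038 ± 0.19 and -0.06 ± 0.21 log2 (SE) at 10, 30 and 80 cGy. Insig1 ran from 8.33 to 9.14 in sham hosts (median 8.96), from 8.47 to 10.09 at 10 cGy (median 9.00), from 8.50 to 9.86 at 30 cGy (median 8.96) and from 8.18 to 9.52 at 80 cGy (median 8.67). Insig2 ran from 8.29 to 10.10 in sham hosts (median 9.13), from 8.27 to 10.02 at 10 cGy (median 9.30), from 8.37 to 9.31 at 30 cGy (median 8.77) and from 8.45 to 9.12 at 80 cGy (median 8.87). Insig2 stood below the sham mean in 9 of 10 tumours at 30 cGy, but all 10 lay within the sham range. Its difference there was -0.38 ± 0.17 (SE, unadjusted p = 0.0290, adjusted p = 0.990, limma), at 80 cGy it was -0.27 ± 0.18 (adjusted p = 0.805), and at 10 cGy 0.08 ± 0.17. Thrsp ran from 4.26 to 10.36 in sham hosts (median 5.57), from 4.71 to 7.98 at 10 cGy (median 6.69), from 4.71 to 10.55 at 30 cGy (median 6.57) and from 4.14 to 9.10 at 80 cGy (median 5.01). Thrsp spanned a wider range within each group than its difference from sham (0.68 ± 0.68 at 30 cGy, -0.84 ± 0.73 at 80 cGy).

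Among the chain-building and substrate genes, no difference from sham passed the test. Fasn ran from 9.09 to 11.23 in sham hosts (median 9.68), from 9.10 to 10.74 at 10 cGy (median 9.88), from 9.44 to 12.41 at 30 cGy (median 10.13) and from 9.27 to 10.92 at 80 cGy (median 10.07). Acss2 ran from 5.55 to 8.14 in sham hosts (median 6.89), from 5.74 to 7.98 at 10 cGy (median 7.05), from 6.21 to 8.12 at 30 cGy (median 6.87) and from 5.53 to 7.52 at 80 cGy (median 6.20). The Acss2 groups overlapped, with a difference of -0.45 ± 0.32 at 80 cGy (adjusted p = 0.823). The difference in Acaca was 0.36 ± 0.22 at the middle dose and -0.17 ± 0.24 at the top dose, and in Fasn 0.41 ± 0.23 and 0.08 ± 0.25. Me1 ran from 8.43 to 10.92 in sham hosts (median 9.55), from 9.07 to 10.38 at 10 cGy (median 9.42), from 8.89 to 10.97 at 30 cGy (median 9.89) and from 8.71 to 9.96 at 80 cGy (median 9.47). Me1 was lower in 80 cGy hosts than at 30 cGy by group median, and the test among doses gave it an unadjusted p of 0.124 (adjusted p = 0.999).

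Scd1 and Elovl6 had the most positive differences from sham of the 36 genes over all Si hosts, without passing the test. Elovl6 ran from 8.04 to 10.19 in sham hosts (median 8.90), from 8.41 to 11.09 at 10 cGy (median 9.20), from 7.86 to 10.51 at 30 cGy (median 9.57) and from 7.46 to 10.07 at 80 cGy (median 9.44). Scd1 ran from 8.89 to 12.85 in sham hosts (median 11.69), from 9.66 to 13.31 at 10 cGy (median 11.70), from 10.69 to 13.38 at 30 cGy (median 12.58) and from 10.06 to 12.95 at 80 cGy (median 12.36). Elovl6, which extends palmitate, was above the sham mean in 7 of 9, 8 of 10 and 6 of 8 tumours at the 3 doses. It differed by 0.43 ± 0.21 over all Si hosts (unadjusted p = 0.0441, adjusted p = 0.855), 0.45 ± 0.28 at 10 cGy and 0.54 ± 0.27 at 30 cGy. Scd1 was above the sham mean in 6 of 9, 8 of 10 and 7 of 8 tumours, with differences of 0.54 ± 0.30 over all Si hosts (adjusted p = 0.889) and 0.78 ± 0.39 at 30 cGy (adjusted p = 0.990). The groups overlapped for both genes, and neither difference passed the test. Fads2 ran from 7.62 to 11.36 in sham hosts (median 10.29), from 8.41 to 11.73 at 10 cGy (median 10.59), from 9.96 to 11.70 at 30 cGy (median 10.38) and from 8.94 to 11.18 at 80 cGy (median 10.08). Fads2, a fatty acid desaturase, differed by 0.59 ± 0.35 at 30 cGy and -0.10 ± 0.38 at 80 cGy.

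The glycerolipid and sterol genes did not pass the test either. Dgat2 ran from 6.34 to 9.89 in sham hosts (median 7.80), from 6.34 to 10.60 at 10 cGy (median 6.87), from 6.45 to 11.49 at 30 cGy (median 7.35) and from 6.61 to 8.58 at 80 cGy (median 7.12). Dgat1 ran from 7.76 to 9.54 in sham hosts (median 8.48), from 7.38 to 9.08 at 10 cGy (median 8.14), from 7.93 to 9.86 at 30 cGy (median 8.20) and from 7.94 to 8.84 at 80 cGy (median 8.37). Dgat1 differed by -0.28 ± 0.19 at 10 cGy, and Dgat2 by -0.66 ± 0.49 at 80 cGy. Idi1 ran from 7.46 to 12.05 in sham hosts (median 8.50), from 7.79 to 10.18 at 10 cGy (median 9.49), from 7.62 to 10.28 at 30 cGy (median 9.26) and from 6.57 to 10.12 at 80 cGy (median 9.41). Sqle ran from 7.66 to 10.81 in sham hosts (median 9.30), from 7.72 to 10.92 at 10 cGy (median 9.94), from 8.30 to 11.05 at 30 cGy (median 9.51) and from 7.56 to 11.24 at 80 cGy (median 9.08). The sterol genes overlapped between groups throughout, and Sqle, which oxidises squalene, had its lowest and highest values both at 80 cGy. Mvd ran from 5.38 to 6.68 in sham hosts (median 6.02), from 5.37 to 7.76 at 10 cGy (median 5.84), from 5.37 to 6.78 at 30 cGy (median 6.18) and from 5.41 to 6.70 at 80 cGy (median 6.42). Stard4 ran from 6.14 to 7.17 in sham hosts (median 6.74), from 6.48 to 7.35 at 10 cGy (median 7.05), from 6.05 to 7.30 at 30 cGy (median 6.76) and from 6.28 to 7.71 at 80 cGy (median 6.73). Mvd, which decarboxylates mevalonate diphosphate, differed by 0.31 ± 0.21 at 80 cGy (adjusted p = 0.804). Stard4 differed by 0.27 ± 0.14 at 10 cGy (unadjusted p = 0.0554, adjusted p = 0.991), and 7 of 9 tumours there were above the sham mean. Over all Si hosts 22 of the 36 genes were on the higher side of sham (53.2% of all genes). At 30 cGy 32 of the 36 genes were on the higher side of sham, with a median difference of 0.18 against -0.0032 for all genes and 49.2% of all genes on the higher side. At 10 and 80 cGy 23 and 15 of the 36 were on that side (51.8% and 56.6% of all genes). Over the 3 doses 12 of the 36 were on the higher side each time and 2, Dgat1 and Dgat2, on the lower side each time, against 3016 and 2361 of the 12123 genes. These comparisons share the 18 sham tumours. The milk score was also highest at 30 cGy (mean 1.18 ± 2.01 SD, n = 10, against -0.52 ± 2.00 SD, n = 18, in sham). Its part in the count at 30 cGy was not tested. With the milk and fat scores as covariates the 30 cGy difference was 0.34 for Scd1, 0.34 for Elovl6 and -0.44 for Insig2, none past the test (adjusted p = 1.00).

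**Figure D1:**
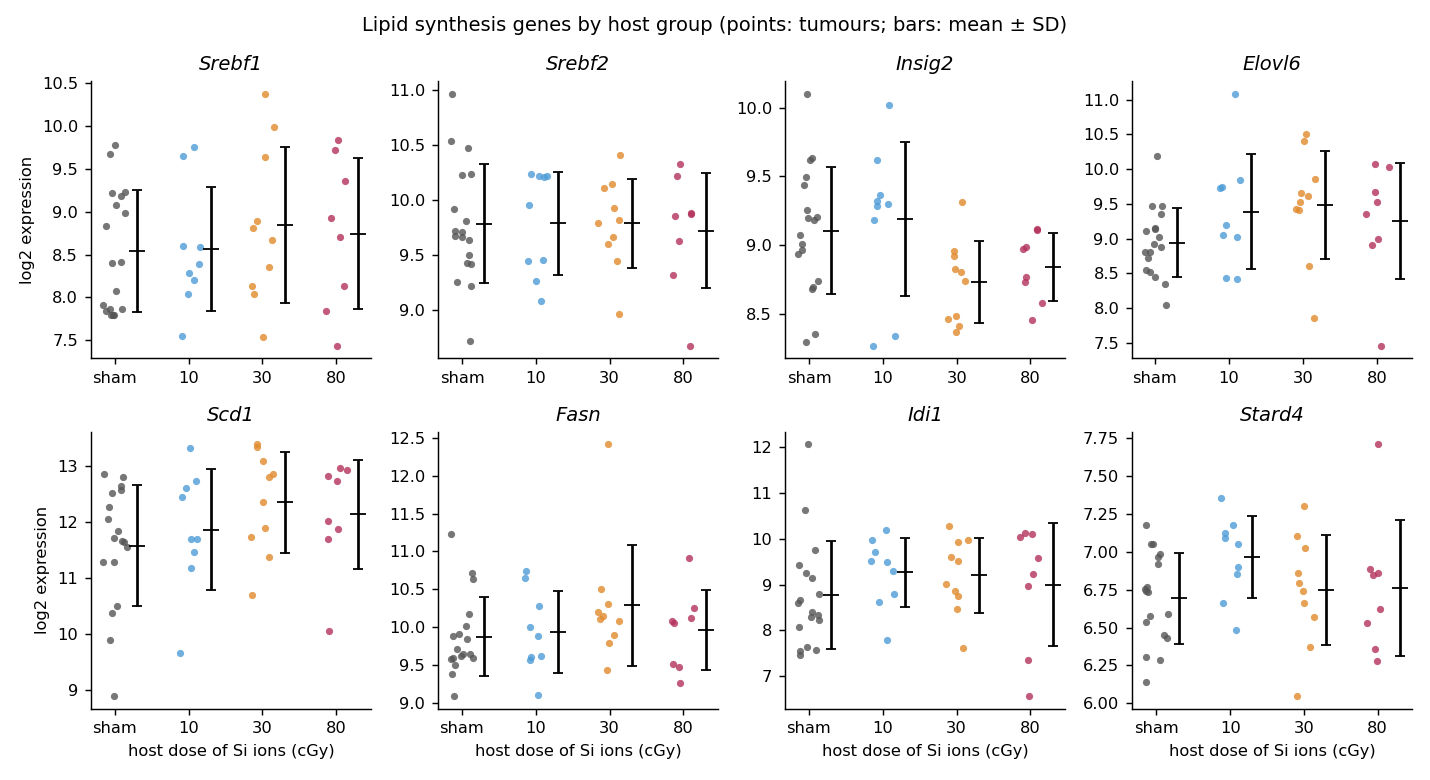
Log2 expression of 8 genes by host dose of silicon ions (sham, 10, 30 and 80 cGy); each point is a tumour, and the bar is the mean with SD. The groups overlap for every gene, and Insig2 at 30 cGy lies between 8.37 and 9.31, within the sham range.

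**Figure D2:**
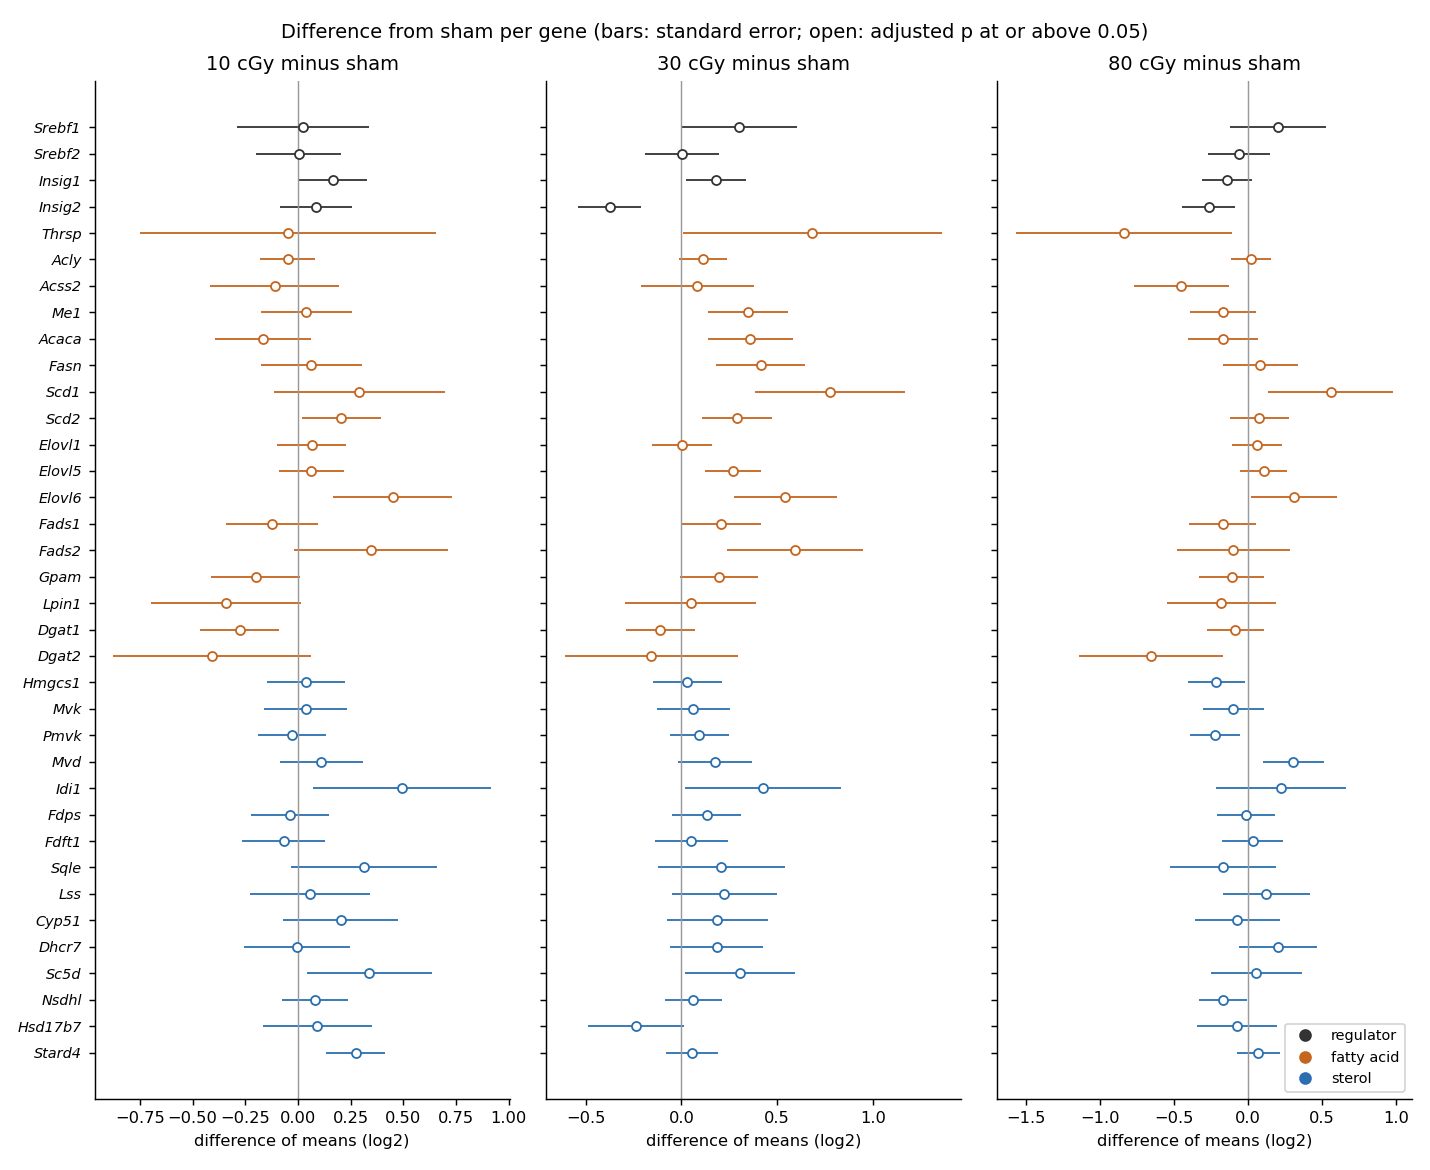
Difference from sham in log2 for each of the 36 genes at the 3 doses, with standard errors; colours give the arm and open symbols an adjusted p of 0.05 or above. All symbols are open, and 32 of 36 differences at 30 cGy are above 0.

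Milk content was tested next, with the milk and fat scores fitted together with the groups. Thrsp rose with the milk score, and it was the only one of the 36 to do so (114 of 12108 genes called, 0.942%, with 100 of them higher, 0.826%). Its slope was 0.42 ± 0.10 log2 per unit of score (SE, adjusted p = 0.0329, limma). It stood highest in 30 cGy replicate 1 (10.55), 30 cGy replicate 7 (10.52), sham replicate 15 (10.36) and sham replicate 1 (9.62). Replicate 7 at 30 cGy had the highest milk score (4.48) and sham replicate 15 a score of -0.94, so high Thrsp was not limited to tumours rich in milk transcripts. The call was lost with any 1 of 8 tumours left out: 30 cGy replicates 4 and 7, 10 cGy replicates 1 and 4, and sham replicates 1, 3, 8 and 16, with adjusted p from 0.0509 to 0.122 there. Adding the epithelial score gave a slope of 0.35 (adjusted p = 0.174), and leaving out the 3 squamous tumours gave 0.38 (0.139).

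The next 4 genes by p were on the higher side without passing the test. Scd1 had a slope of 0.25 ± 0.08 (adjusted p = 0.0996), Me1 0.12 ± 0.04 (0.183), Fads2 0.18 ± 0.07 (0.232) and Srebf1 0.15 ± 0.07 (0.297). Scd1 passed without 10 cGy replicate 9 (0.29, adjusted p = 0.0395) or without sham replicate 15 (0.28, adjusted p = 0.0396). In the fatty acid arm 15 of 17 slopes were above 0 with a median of 0.06, and in the sterol arm 8 of 15 with a median of 0.0023, against 46.7% of all genes. In a separate list of milk fat secretion genes 3 of 12 rose, led by Btn1a1 (0.54 ± 0.07) and Muc1 (0.68 ± 0.10).

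With the fat score 5 of the 17 fatty acid genes rose and 1 fell, and none of the 15 sterol genes was called, where 605 of 12108 genes were called (5%: 287 higher, 2.37%, and 318 lower, 2.63%). Dgat2 had the steepest slope, 0.67 ± 0.10 (adjusted p = 1.40e-05), followed by Thrsp, 0.54 ± 0.15 (0.0256), Lpin1, the phosphatidate phosphatase, 0.39 ± 0.08 (0.00168), Fasn, 0.31 ± 0.05 (1.60e-04), and Gpam, which starts glycerolipid synthesis, 0.24 ± 0.05 (0.00434). Fads2 fell with the score, -0.33 ± 0.10 (0.0472). In the sterol arm 12 of 15 slopes were below 0, where 39.8% of all genes were above 0. Of the genes of glycerolipid assembly in the set, Dgat1 had 0.15 ± 0.05 without passing the test (0.0809). Gpat4, an acyltransferase of the same pathway that RefSeq lists under the synonym Agpat6 and that is not counted in the set, had -0.06 ± 0.08 (0.695).

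These slopes leaned on a few tumours. Lpin1 ran from 5.65 to 9.27 in sham hosts (median 6.81), from 5.68 to 7.07 at 10 cGy (median 6.74), from 5.17 to 10.31 at 30 cGy (median 7.05) and from 6.31 to 7.12 at 80 cGy (median 6.91). Gpam ran from 6.47 to 8.33 in sham hosts (median 7.35), from 6.45 to 7.99 at 10 cGy (median 7.03), from 7.24 to 9.50 at 30 cGy (median 7.39) and from 6.93 to 7.76 at 80 cGy (median 7.31). The fat score was above 2 in 4 tumours: 30 cGy replicate 1 (4.46), and sham replicates 15 (3.69), 14 (2.99) and 9 (2.23). In that order Dgat2 was 11.49, 9.89, 9.20 and 8.98, against a median of 7.23 over all tumours. Fasn was 12.41, 11.23, 10.72 and 10.64, against a median of 9.89. Lpin1 was 10.31, 9.27, 8.67 and 7.73, against 6.82. Of these 4 tumours 3 also had a muscle score above 2 (6.01, 5.27 and 4.11 in the first 3), and the muscle and fat scores correlated (r = 0.60 over 45 tumours sharing arrays, as a description). With the fat score 9 of 10 skeletal muscle genes rose, 8 of 15 cell cycle genes fell and none of 19 epithelial junction genes was called. Replicate 1 at 30 cGy had the lowest cell cycle score of all tumours (-1.32). Dgat2 was also high (10.60) in 10 cGy replicate 5, with a fat score of 1.75 and the highest squamous score (6.35). 

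Without 30 cGy replicate 1, which had the highest value of all tumours for 9 of the 17 fatty acid genes (Fasn, Acaca, Acly, Me1, Thrsp, Gpam, Lpin1, Dgat1 and Dgat2), only Dgat2 and Fasn were called, with slopes of 0.58 (adjusted p = 0.00163) and 0.24 (0.0161), among 113 genes. Lpin1 then had 0.28 (0.0944), Gpam 0.17 (0.143) and Thrsp 0.53 (0.131). Thrsp was also lost without sham replicate 15 (0.36, adjusted p = 0.181) or sham replicate 2 (0.50, adjusted p = 0.0536). Fads2 was lost in 28 of 45 fits with 1 tumour left out. Without the 6 tumours of high muscle score no gene of the 36 was called, and Dgat2 kept a slope of 0.59 ± 0.16 (adjusted p = 0.0942) while Lpin1 had 0.02 (0.947). With the muscle score added Dgat2 alone was called, at 0.58 ± 0.13 (adjusted p = 0.0133). Fads2 then had -0.34 ± 0.13 (0.240), Fasn 0.21 ± 0.06 (0.114), Gpam 0.13 ± 0.06 (0.337), Lpin1 0.17 ± 0.09 (0.372) and Thrsp 0.39 ± 0.19 (0.345). Smaller sets of tumours gave slopes of the same sign for these 6 genes. Within the 18 sham tumours Lpin1 alone was called, at 0.45 ± 0.10 (0.0302), while Fasn had 0.27 ± 0.06 (0.0559), Dgat2 0.44 ± 0.13 (0.244), Gpam 0.23 ± 0.07 (0.187), Thrsp 0.73 ± 0.20 (0.159) and Fads2 -0.50 ± 0.13 (0.0994). Within the 27 tumours of Si hosts Dgat2, 0.90 ± 0.13 (2.42e-04), and Fasn, 0.34 ± 0.08 (0.0444), were called, while Gpam had 0.24 ± 0.08 (0.140), Lpin1 0.33 ± 0.12 (0.188), Thrsp 0.36 ± 0.21 (0.428) and Fads2 -0.18 ± 0.14 (0.599). Of the separate lists, 2 of 13 other synthesis genes rose with the fat score, Pnpla3, a lipid droplet protein, by 0.60 ± 0.07 and Mid1ip1, a partner of Thrsp, by 0.25 ± 0.06. In the SREBP and LXR list 3 of 10 rose, led by Mlxipl (0.35 ± 0.08) and Nr1h3 (0.28 ± 0.07), and in fatty acid oxidation 1 of 10, Cpt2 (0.16 ± 0.04).

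**Figure D3:**
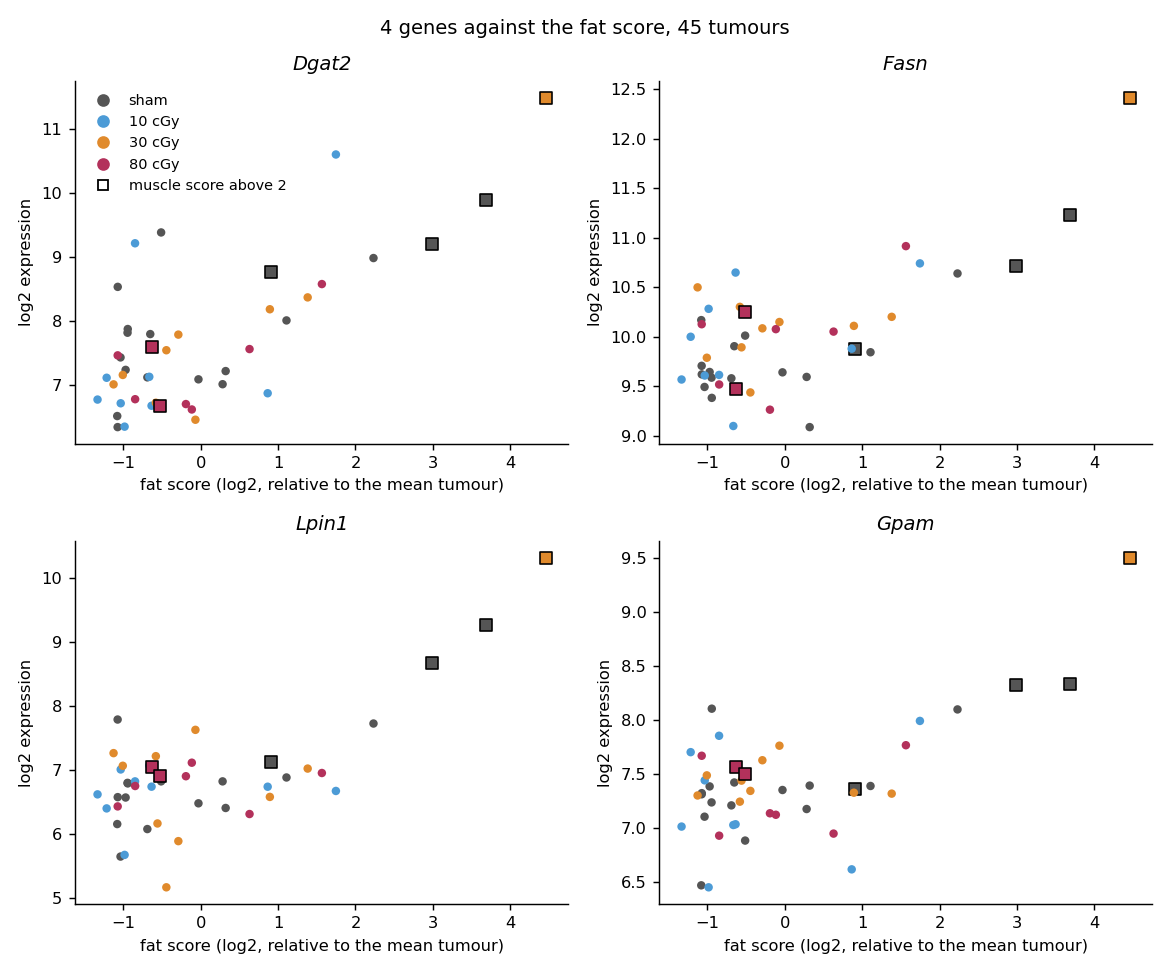
Log2 expression of Dgat2, Fasn, Lpin1 and Gpam against the fat score in 45 tumours; colours give the host group and squares a muscle score above 2. The tumour at a fat score of 4.46 has the highest value of all 4 genes and is also a square.

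The epithelial score, chosen after the data had been seen, was fitted beside group, milk and fat. Of the 36 genes 14 rose with it and none fell, in a table where 4212 of 12089 genes were called (34.8%: 15.4% higher and 19.5% lower). Scd1 had the steepest slope, 0.46 ± 0.07 (adjusted p = 6.92e-07), followed by Idi1, 0.36 ± 0.10, Sc5d, a late sterol desaturase, 0.35 ± 0.06, and Srebf1, 0.33 ± 0.07. Srebf2 rose by 0.22 ± 0.04 per unit (adjusted p = 1.14e-04), and Lss, lanosterol synthase, by 0.30 ± 0.06. Acaca, Acss2, Fads2, Scd2, Sqle, Fdps, Hmgcs1 and Cyp51 also rose. Over the 36, 33 slopes were above 0 (48% of all genes). By arm these calls were 5 of 17 fatty acid genes, 7 of 15 sterol genes and 2 of 4 regulators. With the squamous score added Hmgcs1 (0.04, adjusted p = 0.413), Cyp51 (0.11, 0.255) and Fdps (0.09, 0.142) were no longer called. Dgat1 (0.12, 0.0476) and Me1 (0.16, 0.0214) were called in that fit, and the other genes named here kept their calls.

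Sc5d ran from 7.06 to 11.04 in sham hosts (median 9.06), from 7.61 to 10.55 at 10 cGy (median 9.62), from 8.77 to 10.21 at 30 cGy (median 9.40) and from 8.32 to 10.41 at 80 cGy (median 9.14). Lss ran from 6.05 to 9.13 in sham hosts (median 8.08), from 5.83 to 9.50 at 10 cGy (median 8.25), from 7.44 to 9.70 at 30 cGy (median 8.13) and from 7.45 to 8.57 at 80 cGy (median 8.23). The lowest Scd1 (8.89) and Sc5d (7.06) were both in sham replicate 16, with an epithelial score of -2.98, and the lowest Lss (5.83), Cyp51 (6.84) and Acaca (7.42) in 10 cGy replicate 1, with a score of -3.25. Both tumours are among the 8 with low epithelial markers, and their arrays were the most alike over all genes (r = 0.98). Without those 8 tumours 8 genes of the 36 were called: Dgat1, Dhcr7, Idi1, Lss, Sc5d, Scd1, Srebf1 and Srebf2. Over all genes 2808 of 12089 were called there (23.2%), about the same share as in the set. With the score 11 of 12 macrophage genes and 7 of 8 endothelial genes fell, and their part in these slopes was not tested. In the separate lists Elovl7, an elongase, rose by 0.80 ± 0.07, and Scap, the escort of the SREBPs, by 0.17 ± 0.03.

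**Figure D4:**
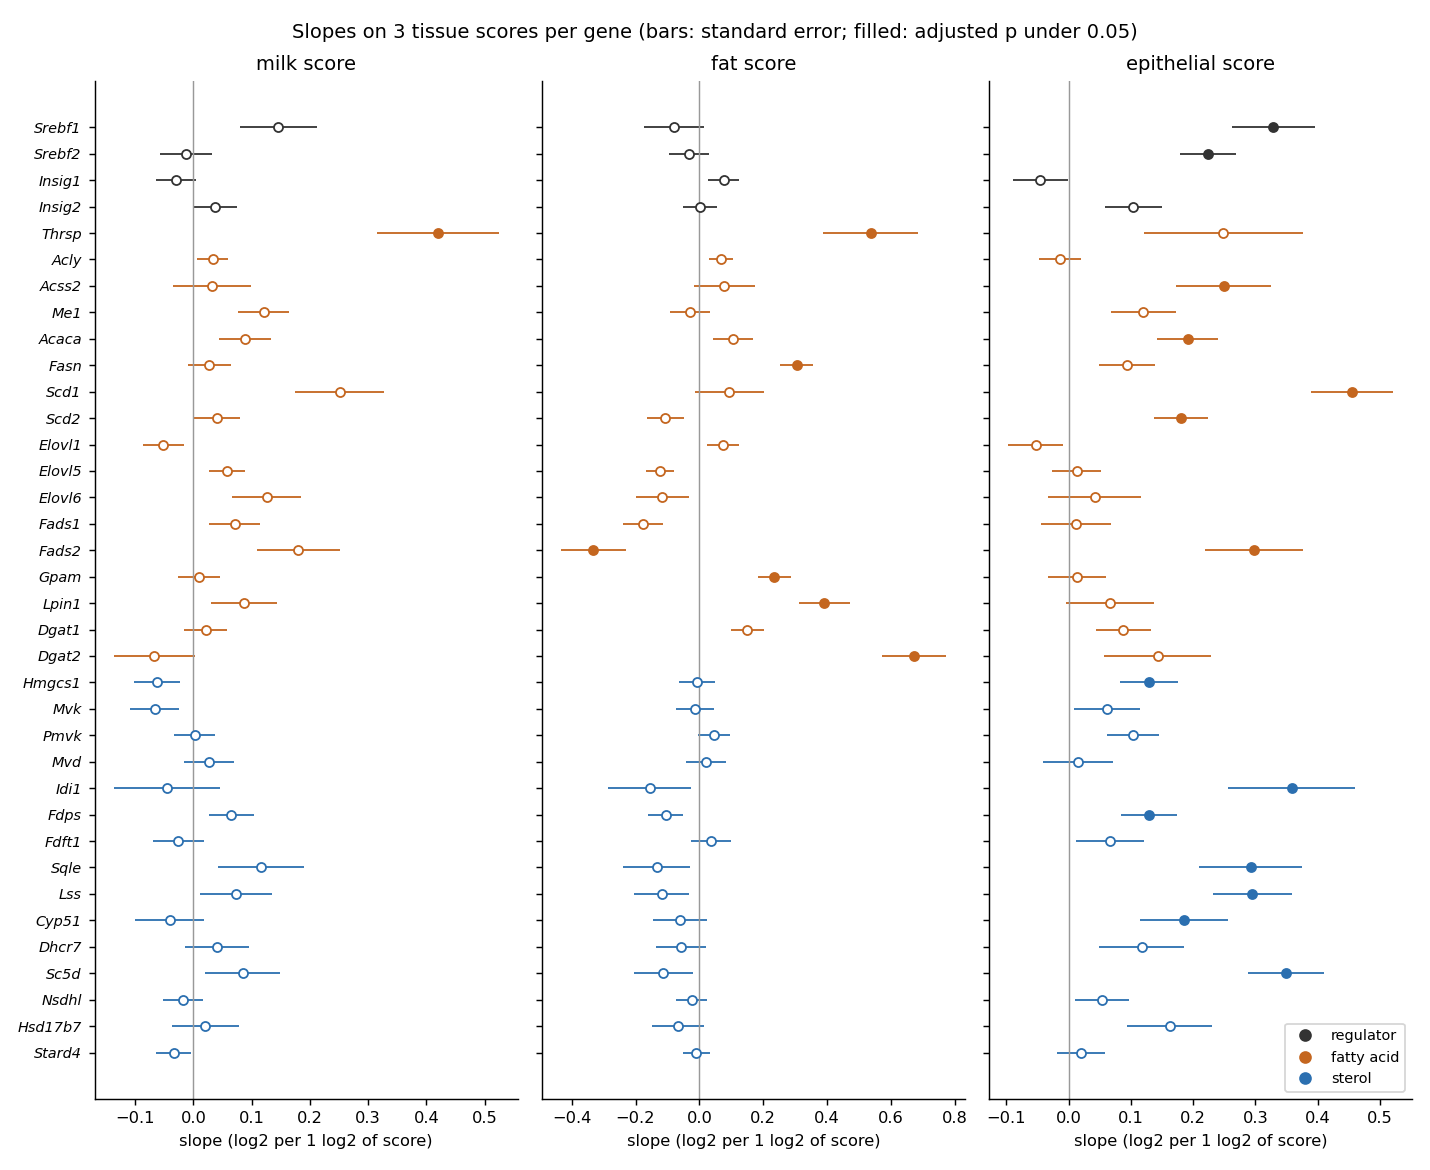
Slope of each of the 36 genes on the milk, fat and epithelial scores, in log2 per unit of score, with standard errors; filled symbols passed an adjusted p under 0.05 and colours give the arm. Filled symbols on the fat score are all from the fatty acid arm, with Dgat2 at 0.67, and 14 are filled on the epithelial score.

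The SREBP genes themselves were then used as the measure. Srebf1 and Srebf2 were fitted together with the groups, a test added after the data had been seen. With Srebf2, at a given Srebf1, 12 of the 15 sterol genes rose and none of the 17 fatty acid genes was called. Of all 12121 genes 598 rose (4.93%) and 453 fell (3.74%). Idi1 and Cyp51 had the smallest and second smallest p of the 12121 genes, with slopes of 1.89 ± 0.21 (adjusted p = 2.02e-07) and 1.26 ± 0.15 (6.10e-07) log2 per log2 of Srebf2. Next came Sqle, 1.27 ± 0.21 (2.80e-04), Hmgcs1, 0.72 ± 0.12 (2.80e-04), and Nsdhl, a sterol dehydrogenase, 0.55 ± 0.11 (0.00230). Mvk, Fdps, Sc5d, Fdft1, Lss, Hsd17b7 and Stard4 also rose, with slopes of 0.35 to 0.90. The 3 sterol genes that did not pass were Mvd (0.48 ± 0.16, adjusted p = 0.0511), Pmvk (0.23 ± 0.14, 0.275) and Dhcr7 (0.27 ± 0.17, 0.313). In the fatty acid arm the lowest adjusted p was 0.0787, for Lpin1 (-0.76 ± 0.28). Slopes were above 0 for 15 of 15 sterol and 11 of 17 fatty acid genes (52% of all genes), and whether the arms differ in slope was not tested. In a fit of Srebf2 alone 3154 of 12121 genes were called. Of the 17 fatty acid genes 3 were called there, a smaller share than over all genes. These were Scd1 (1.00, adjusted p = 0.00752), Scd2 (0.47, 0.00732) and Fads2 (0.71, 0.0396). Dhcr7 (0.58, 0.0121) and Mvd (0.43, 0.0211) were also called there, and Stard4 was not (0.23, 0.0880).

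In single tumours, Srebf2 was highest in sham replicate 11 (10.96), sham replicate 17 (10.53) and sham replicate 3 (10.47), where Idi1 was 12.05, 9.75 and 10.62. It was lowest in 80 cGy replicate 1 (8.67), where Idi1 (6.57) and Sqle (7.56) were lowest of all tumours. Cyp51 ran from 7.01 to 9.44 in sham hosts (median 8.04), from 6.84 to 9.55 at 10 cGy (median 8.05), from 7.42 to 8.84 at 30 cGy (median 8.27) and from 7.43 to 8.92 at 80 cGy (median 7.69). Hmgcs1 ran from 7.93 to 9.23 in sham hosts (median 8.41), from 7.80 to 9.95 at 10 cGy (median 8.35), from 7.99 to 9.30 at 30 cGy (median 8.61) and from 7.81 to 8.99 at 80 cGy (median 8.26). Nsdhl ran from 9.06 to 10.47 in sham hosts (median 9.64), from 9.29 to 10.37 at 10 cGy (median 9.77), from 9.13 to 10.52 at 30 cGy (median 9.71) and from 8.99 to 10.29 at 80 cGy (median 9.34). Cyp51, the lanosterol demethylase, and Hmgcs1 were highest in 10 cGy replicate 5 (9.55 and 9.95), where Srebf2 was 10.21. Replicate 5 at 10 cGy had the highest value of all tumours for 6 sterol genes: Hmgcs1, Mvk, Pmvk, Mvd, Cyp51 and Hsd17b7. With 1 tumour left out at a time, between 11 and 13 of the 34 other genes of the set were called. Without sham replicate 11 the genes called in the whole table dropped from 1051 to 526, and Idi1 had a slope of 1.70 (adjusted p = 6.57e-06). Without sham replicate 17 there were 656. Within the sham tumours Idi1 had 2.02 ± 0.33 and was the only one called, with Cyp51 at 1.14 ± 0.23 (adjusted p = 0.0638), Sqle at 1.10 ± 0.21 (0.0638), Hmgcs1 at 0.64 ± 0.16 (0.102) and Nsdhl at 0.49 ± 0.17 (0.204). Within tumours of Si hosts Idi1 had 1.81 ± 0.27 and was called with Cyp51 (1.32 ± 0.19), while Sqle had 1.39 ± 0.34 (0.0646), Hmgcs1 0.77 ± 0.17 (0.0585) and Nsdhl 0.62 ± 0.15 (0.0646).

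Other tissue genes moved with Srebf2 as well. With it 7 of 8 squamous epithelium genes and 5 of 19 epithelial junction genes rose, while 6 of 8 endothelial genes and 1 of 12 macrophage genes fell. With the squamous score added 8 sterol genes were still called, Idi1 at 1.87, where 911 of 12121 genes were called (7.52%). Without the 3 tumours of squamous score above 2 there were 11 sterol genes and Lpin1, where 1274 were called (10.5%). With milk, fat and epithelial scores added to the fit, Idi1 had a slope of 1.84 ± 0.25 (adjusted p = 3.4e-05). Cyp51, Sqle, Hmgcs1, Nsdhl, Mvk, Fdps and Fdft1 also kept their calls. Sc5d (0.65), Lss (0.65), Hsd17b7 (0.57) and Stard4 (0.35) were no longer called, with adjusted p from 0.0627 to 0.118. Mvd was called in that fit (0.71, adjusted p = 0.0186). Of 13 other sterol and fatty acid synthesis genes in a separate list, 2 rose and 1 fell with Srebf2: Msmo1, the sterol C4-methyl oxidase, rose by 0.83 ± 0.21 (adjusted p = 0.0125) and Acsl4 fell by 0.77 ± 0.23 (0.0292). Abca1 and Abcg1, cholesterol exporters in a list of SREBP and LXR genes, fell by 0.82 ± 0.17 and 0.56 ± 0.16 per unit of Srebf2.

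With Srebf1, at a given Srebf2, 5 of the 34 other genes of the set rose and 4 fell, where 1251 of 12121 rose (10.3%) and 753 fell (6.21%). Scd1 rose by 0.77 ± 0.16 (adjusted p = 8.88e-04), Me1 by 0.47 ± 0.10 (5.98e-04), Scd2, a second desaturase, by 0.30 ± 0.08, Lpin1 by 0.53 ± 0.18, and Dhcr7, the last step of cholesterol synthesis, by 0.41 ± 0.11. Hmgcs1 fell by 0.35 ± 0.08 (0.00108), Cyp51 by 0.37 ± 0.09, Mvk by 0.27 ± 0.09 and Hsd17b7 by 0.35 ± 0.12. Slopes were above 0 for 15 of 17 fatty acid and 6 of 15 sterol genes (50.9% of all genes). Scd2 ran from 11.13 to 12.48 in sham hosts (median 11.80), from 10.92 to 12.78 at 10 cGy (median 11.99), from 11.28 to 12.92 at 30 cGy (median 11.95) and from 10.97 to 12.24 at 80 cGy (median 11.94). The falls were those at a given Srebf2: with Srebf1 alone Cyp51 had a slope of 0.012 (adjusted p = 0.955) and Hmgcs1 -0.13 (0.302). Acaca (0.25 ± 0.12, adjusted p = 0.162) and Fasn (0.19 ± 0.13, adjusted p = 0.346) did not pass the test. With Srebf1 14 of 19 epithelial junction genes and 3 of 7 milk protein genes rose and 3 of 8 squamous genes fell. With the squamous score added, Mvk (-0.21, adjusted p = 0.127) and Hsd17b7 (-0.17, 0.320) were no longer called. Acaca was then called (0.40, 0.0148), and the other genes called above kept their calls. The cause was not tested. With the milk, fat and epithelial scores added instead, 6 of the 34 were called, where 1023 of 12121 genes were called (8.44%). Dhcr7 (0.55) and Me1 (0.37) rose, and Hmgcs1 (-0.46), Cyp51 (-0.45), Hsd17b7 (-0.62) and Insig2 (-0.32) fell. Scd1 then had a slope of 0.36 (adjusted p = 0.111), Scd2 0.28 (0.0640), Lpin1 0.39 (0.117) and Mvk -0.24 (0.184). Within the sham tumours none of the 34 was called with Srebf1, where 182 of 12121 genes were called (1.5%). Scd1 had 0.70 ± 0.35 there (adjusted p = 0.294), Me1 0.47 ± 0.18 (0.167), Scd2 0.31 ± 0.14 (0.256), Hmgcs1 -0.22 ± 0.13 (0.363) and Cyp51 -0.16 ± 0.18 (0.696).

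**Figure D5:**
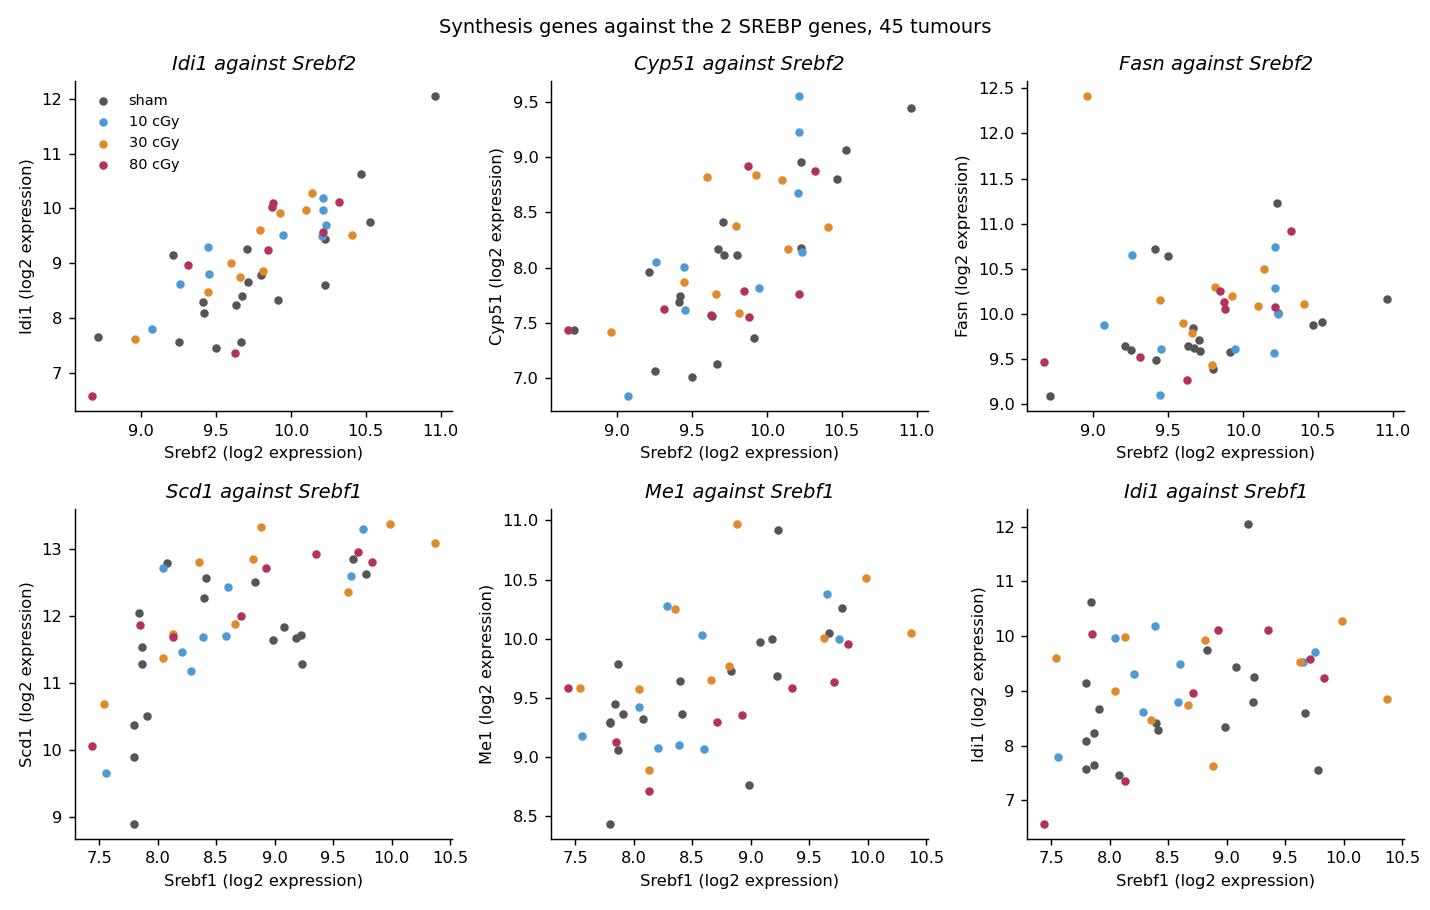
Log2 expression of named genes against Srebf2 (upper row: Idi1, Cyp51, Fasn) and Srebf1 (lower row: Scd1, Me1, Idi1), 1 point per tumour, coloured by host group. Idi1 follows Srebf2 from 6.57 to 12.05, while Fasn shows no such order. Of the fatty acid genes not drawn against Srebf2, Scd1, Scd2 and Fads2 rose with it in a fit of Srebf2 alone. The others were not called there.

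Pairwise correlations over the 45 tumours are given as a description, since all genes share the arrays. The median r was 0.46 over the 105 pairs within the sterol arm, 0.29 over 136 pairs within the fatty acid arm and 0.12 over 255 pairs between the arms, against 0.01 for all gene pairs. Srebf2 had a median r of 0.52 with sterol and 0.13 with fatty acid genes, and Srebf1 had 0.15 and 0.31. The closest pairs were Srebf2 with Idi1 (0.81) and Fads1 with Fads2 (0.80), 2 neighbouring desaturase genes. The spread in a gene was split in the order host group, then milk and fat scores, then epithelial score. Each share is what a term added to those before it, so it depends on that order. Milk and fat scores added a median of 19.6% in the fatty acid arm and 4.16% in the sterol arm. The epithelial score added 3.53% and 12.4%, and host group accounted for 6.91% and 3.94%. The corresponding medians over all genes were 6.83%, 6.08% and 5.56%.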

How the data were processed

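The authors deposited 1 table of log2 expression values per probe set for 45 single-colour arrays, made by robust multi-array averaging (RMA) with oligo per the submitters' processing notes; the sources used here give no versions. Array medians lay between 5.48 and 5.80, and no further normalization was applied. Sequencing depth does not apply; the number of arrays limits the precision. Of 35556 probe sets, 21218 had 1 symbol in the platform annotation, 1881 several and 12457 none. Each gene was represented by its probe set of highest mean, and genes above the table median (5.67) in at least 8 tumours were kept (12123). Group means, and slopes on the milk and fat scores with group, were fitted with limma 3.58.1 in R 4.3.3, with Benjamini-Hochberg adjustment over all 12123 genes. Genes of a score, or Srebf1 and Srebf2, entered that adjustment but are left out of counts for their own slope (12108, 12089 and 12121 genes counted). Slopes on the epithelial score and on Srebf1 and Srebf2 were added after the data had been seen. The members and lists were chosen with earlier results of these data known. All members could be named; values by group are given for Srebf1, Srebf2, Insig1 and Insig2, the most variable gene of each role, the 3 smallest p per comparison with sham and the 5 per score or regulator. Scores used all listed genes on the array. The fits were checked on simulated data. Replicate numbers do not pair tumours: same-numbered tumours of other groups had a median correlation of -0.07, with 10 of 52 pairs over 0.1. The 8 pairs sharing a label code had a median correlation of -0.01, from -0.11 to 0.69. Alternatives covered filtering, scaling, probe set choice, array weights, a random block of tumours sharing a label code, covariates and each tumour left out. With that random block every count of calls stayed within 1.5 times of that reported. Gpat4, a RefSeq synonym match for Agpat6, was not counted.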

Additional observations from a re-analysis of the deposited data

Results flagged for a closer look

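Within the 3 irradiated groups, 108 combinations of gene and group were examined for a tumour far from the rest of its group, and 19 (17.6%) had one. The nominal rate per combination is about 1 in 20. The genes share tumours and the share over all genes was not computed, so the count is a description. The sham group, with 18 tumours, is too large for this check. Replicate 1 at 30 cGy stood above its group in 5 genes: Fasn at 12.41 (next 10.50), Gpam at 9.50 (next 7.76), Lpin1 at 10.31 (next 7.63), Dgat1 at 9.86 (next 8.74) and Dgat2 at 11.49 (next 8.37). It also had the highest fat and muscle scores of all tumours.

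Replicate 1 at 80 cGy stood below its group in Scd1 at 10.06 (next 11.69) and Elovl6 at 7.46 (next 8.91). Replicate 7 at 80 cGy stood above its group in Fads1 at 11.47 (next 10.90), Thrsp at 9.10 (next 6.40) and Stard4 at 7.71 (next 6.88). Replicate 3 at 80 cGy was high in Elovl1 at 11.19 (next 10.50) and Mvk at 7.65 (next 6.82). Replicate 5 at 10 cGy, with the highest squamous score, was high in Elovl1 at 11.15 (next 10.52), Pmvk at 8.21 (next 7.15) and Mvd at 7.76 (next 6.23). Single values were Insig1 at 10.09 in 10 cGy replicate 3 (next 9.28), Lss at 9.70 in 30 cGy replicate 10 (next 8.51), Lpin1 at 5.68 in 10 cGy replicate 7 (next 6.40) and Sc5d at 7.61 in 10 cGy replicate 1 (next 9.18). The causes were not tested.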

How the results depend on the processing

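Over the alternatives that leave out no single tumour, 303 counts of calls stayed within 1.5 times of those reported and 59 did not. Of single genes, 628 values kept their direction and side of the threshold, 68 lost a call, 4 gained one and 1 reversed. The causes of the changes below were not tested. For Si hosts against sham, 6 genes were called with a replicate block, and none of the 36. At 80 cGy 30 genes were called with array weights, 1 with a replicate block, 1 with only the 2 groups compared and 1 within array set B; the F test over groups called 2 with array weights. The milk slope called 275 genes and 2 of the 36 with array weights, 29 and 0 with the epithelial score added, 63 and 0 without the 2 farthest tumours, 3 and 0 within sham, 17 and 0 within Si hosts, 202 and 2 without the 6 muscle-rich tumours, 41 and 0 without the squamous tumours and 12 and 0 without the 8 tumours of low epithelial score. It called 0 of the 36 with the stricter filter, which asks for 23 tumours above the table median and leaves Thrsp untested. It called 2 with this score alone or without group terms. The fat slope called 277 genes and 2 of the 36 with the replicate block, 135 and 3 with the cell cycle score, 71 and 1 without the 2 farthest tumours, 80 and 1 within sham, 93 and 2 within Si hosts, 81 and 1 with the muscle score and 41 and 0 without the muscle-rich tumours. The epithelial slope called 9 of the 36 with the replicate block, 1839 genes and 9 within sham, 2533 and 8 within Si hosts, and 8 without the tumours of low epithelial score. The Srebf1 slope called 182 genes and 0 of the 34 others within sham, 892 genes within Si hosts, 1023 with the 3 scores added, 1048 without the tumours of low epithelial score and 3488 with Srebf1 alone, where Cyp51 turned to 0.012. The Srebf2 slope called 9 genes and 0 of the 34 with the replicate block, 6 and 1 within sham, 23 and 2 within Si hosts, 458 genes with the 3 scores added and 3154 with Srebf2 alone. With the block Idi1 had a Srebf2 slope of 1.16 (adjusted p = 0.0766). The block rests on numbers that do not pair tumours, and numbers 11 to 18 exist only in sham. The milk count fell below its 1.5-fold margin without 30 cGy replicates 4 (71) and 7 (67), 10 cGy replicates 1 (59) and 4 (65) and sham replicates 2 (67) and 16 (69), and rose above it without sham replicate 15 (292). With each tumour left out in turn, genes called ranged from 0 to 1 for Si hosts and for 80 cGy, 59 to 292 for milk (0 to 2 of the 36), 113 to 693 for fat (2 to 7), 3938 to 4355 for epithelial (11 to 18), 1507 to 2211 for Srebf1 (6 to 10 of 34) and 526 to 1234 for Srebf2 (11 to 13 of 34). Alternatives for the added slopes, those within an array set, and those that leave out muscle-rich, squamous or low-epithelial tumours, were chosen after seeing the data. Low probe signal near the table median limits the dimmest genes.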
